A study of Mus musculus with 12 samples.

Results

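The genes described here encode collagens and other proteins of the extracellular matrix, and 40 were chosen by name. They comprise fibrillar collagens, other collagen chains, basement membrane proteins, glycoproteins, proteoglycans, and a few cross-linking enzymes and fibroblast surface proteins. Of the 40, 37 had a row on the array that carries their symbol alone, and 35 of those 37 were tested, among 13286 genes tested and 22180 genes named in all. Where several rows carried a gene, that with the highest mean was used, and a gene entered the tests when 3 or more arrays exceeded 4.93, the median over all rows and arrays. Fap was above that limit on 0 of 12 arrays and Eln on 2, so neither was tested. Fbn1, Spp1 and Loxl2 were not analysed here.

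RNA of mouse colorectal tumours that had grown in liver was hybridised to 12 single-colour whole-transcript arrays. The 4 groups, for which the design text gives 3 mice apiece, were tumours in healthy liver with vehicle, tumours in healthy liver with anti-VEGF (an antiangiogenic treatment directed at vascular endothelial growth factor), tumours in fatty liver with vehicle, and tumours in fatty liver with anti-VEGF. The labels name neither the strain, age and sex of the mice nor the tumour cells, the cause of the fatty liver, or the agent, dose and duration of treatment. The questions the layout addresses are how the tumour's expression differs with the liver it grows in, how it differs with antiangiogenic treatment in each liver, and whether the 2 treatment differences are unequal.

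The extracellular matrix is laid down in a tumour largely by fibroblasts, pericytes and, in liver, stellate cells, with basement membrane proteins also made by endothelial and epithelial cells. Fibrillar collagens give tensile strength, whereas collagen IV, laminins and nidogen form the thin sheets that underlie vessels and epithelia. Matricellular proteins such as thrombospondin and periostin regulate cells and growth factors more than they bear load.

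Some features of the arrays touch the results. Some arrays of a group were almost the same: over the tested genes, the SD of the difference between arrays was 0.163 for healthy liver vehicle arrays 1 and 3, between 0.148 and 0.156 for the 3 healthy liver anti-VEGF arrays, and 0.163 for fatty liver vehicle arrays 1 and 3, against 0.391 to 0.636 for all other pairs of a group. Although the labels call all of them biological replicates, whether these arrays hold separate tumours was not tested, and the counts below are also given with such arrays averaged, which leaves 8 arrays. In addition, 3 arrays were highest in the endothelial list: the mean log2 value of its 13 tested genes was 8.88 on healthy liver vehicle array 2, 7.56 on fatty liver vehicle array 2 and 7.06 on fatty liver anti-VEGF array 1, against 5.40 to 5.95 on the other 9. Finally, fatty liver anti-VEGF array 3 had a T and NK cell mean of 5.73, against 8.04 to 9.01 on the other fatty liver arrays and 4.96 to 5.67 in healthy liver. Of 14 colorectal epithelial markers, 8 were at or below the limit on all 12 arrays, Epcam, Krt19, Krt20, Cdx1 and Vil1 among them, while Krt8 and Krt18 were above it on all. Of 11 hepatocyte markers on the array, 8 were at or below the limit throughout, Alb included.

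The matrix genes differed in their spread within groups and in whether they passed between livers. Collagen VI, collagen XVIII, Col4a1, Lamb1, Lamc1 and Nid1 had a within-group SD of at most 0.44 (log2) and were lower in tumours from fatty liver under both treatments. Col4a2 was lower under vehicle, and the other basement membrane genes, Lama4 and Col15a1, passed in neither comparison. Collagen I, periostin, tenascin-C, decorin and biglycan spanned more than 1 doubling within 3 of the 4 groups. Under vehicle their differences ran from -0.24 to -1.18, with a standard error of 1.05 to 1.31, and none passed. For the low-spread genes named first the standard error was 0.13 to 0.21, so passing depended in part on spread. Thrombospondin-1 was higher in fatty liver under both treatments and versican under vehicle.

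**Figure D1:**
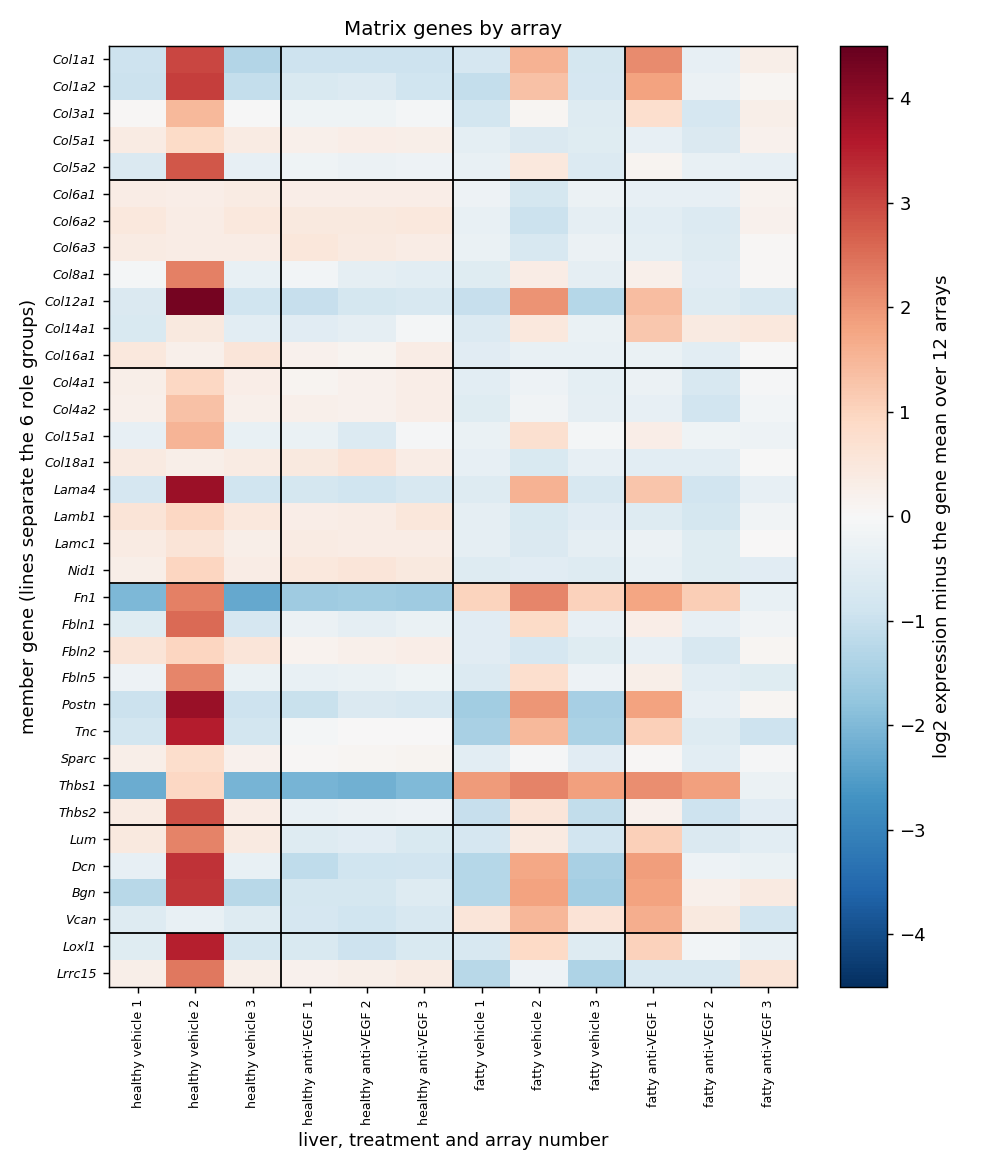
Log2 expression of each of the 35 tested matrix genes (y axis, grouped by role) on each of the 12 arrays (x axis), shown as the difference from the gene's own mean over the arrays (colour scale). The columns of healthy liver vehicle array 2, fatty liver vehicle array 2 and fatty liver anti-VEGF array 1 stand out for collagen I, collagen XII, periostin and biglycan, whereas Thbs1 is high on 5 of the 6 fatty liver arrays.

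Comparing tumours in fatty liver with those in healthy liver under vehicle, 15 of the 35 tested matrix genes were lower and 2 were higher at an adjusted p under 0.05 (limma, Benjamini-Hochberg over all tested genes). Over all tested genes, 30.4% were lower and 19.2% higher, so calls were common in this comparison. The median log2 difference was -0.82 over the matrix genes and -0.12 over all genes. By role, 6 of 8 basement membrane genes, 4 of 7 fibril-associated, beaded and short-chain collagens, 1 of 5 fibrillar collagens, 3 of 9 glycoproteins, 0 of 4 proteoglycans and 1 of 2 cross-linking or fibroblast surface genes were lower. Groups did not overlap for 14 lower and 2 higher members, against 37.2% and 23.6% of all tested genes. With near-identical arrays averaged, 3 members passed (Lamb1, Nid1 and Fbln2, all lower), against 0.956% of all genes lower and 4.47% higher in that fit, so the count rests on treating those arrays as separate samples. Without healthy liver vehicle array 2 the count was 16 (55.2% of all genes called) but the members' median moved to 0.01. That group then held only the near-identical arrays 1 and 3. In bulk tissue, fewer cells of a type and less RNA per cell cannot be told apart.

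Under anti-VEGF, with 6 other arrays, 11 members were lower and 2 higher in fatty liver, against 27.6% and 18.2% of all tested genes. All 11 were among the 15 lower under vehicle, which is 73.3% of that list. They were Col5a1, Col6a1, Col6a2, Col6a3, Col16a1, Col4a1, Col18a1, Lamb1, Lamc1, Nid1 and Fbln2. The share of all tested genes lower in both comparisons was not counted, so this overlap is not shown to be particular to the members. The members' median was 0.04, against -0.13 for all genes. Groups did not overlap for 12 lower and 10 higher members, against 36.6% and 21.9%. With near-identical arrays averaged, 0 members passed in limma, against 0.173% of all genes lower and 3.67% higher. The healthy liver anti-VEGF group is then 1 sample, assumed to vary like the others, against 3. With 1 array left out the count ran from 7 (35.5% of all genes called), without fatty liver anti-VEGF array 1, to 16 (56.3%), without array 3 of that group. It was 8 without array 2 of the fatty liver group (32.4%), and 8 without any 1 of the healthy liver anti-VEGF arrays (32.2% to 32.9%). Array weights gave 20 of the 35, where 74.4% of all genes were called.

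**Figure D2:**
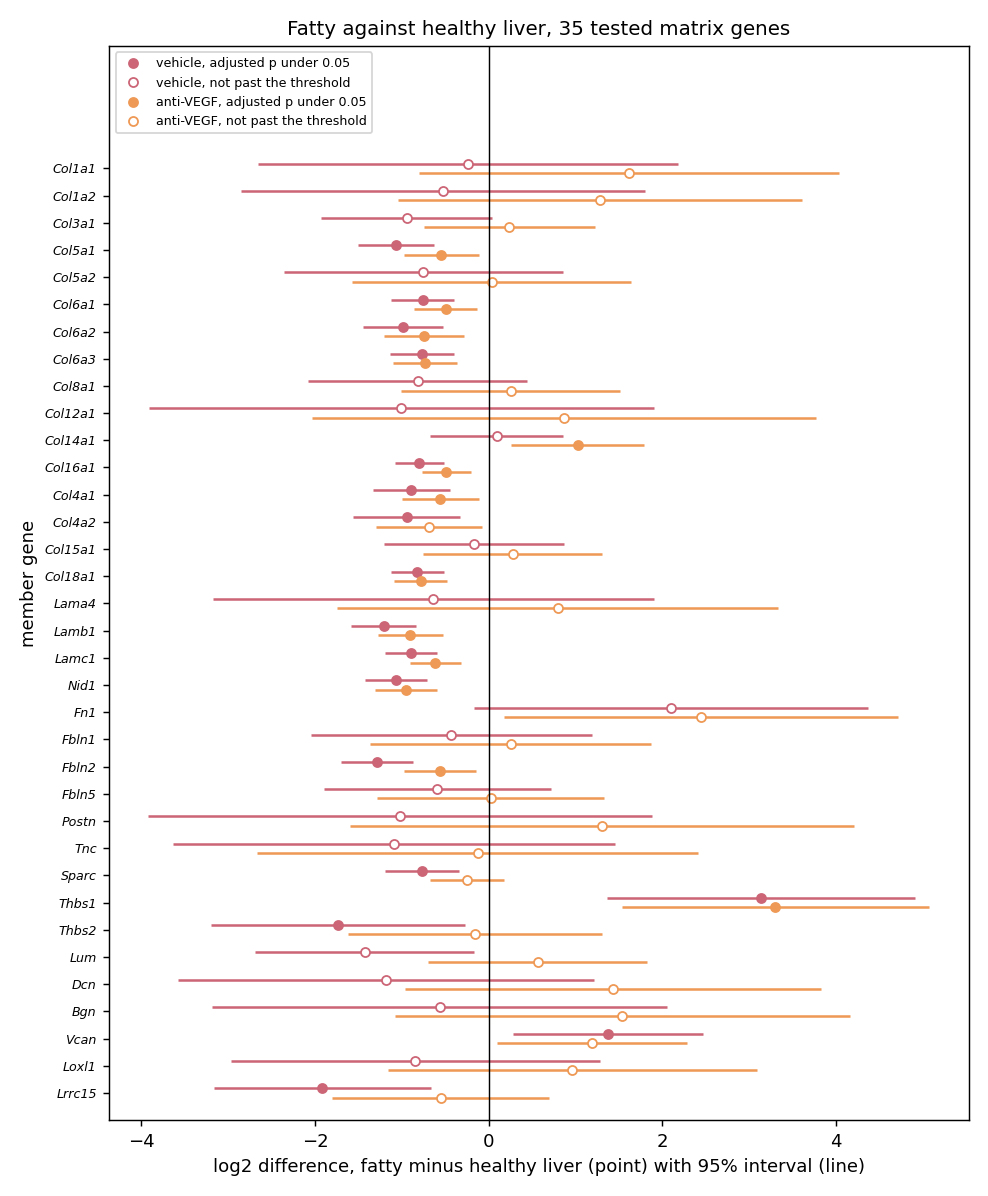
Log2 difference between fatty and healthy liver (x axis; points, with lines for the 95% interval) for each tested matrix gene (y axis), with vehicle or with anti-VEGF; filled points passed an adjusted p of 0.05. Short intervals left of 0 mark collagen VI, collagen IV, collagen XVIII, Lamb1, Lamc1 and nidogen, and the long intervals that span 0 belong to members with wide spread within groups.

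Promoters are shown for members that changed or varied together. The sequences are RefSeq's for build GRCm38.p6, each 150 bases ending before an annotated start and written 5′ to 3′ on the gene's strand. Of the 35 tested members, 24 had an entry. Capitals mark the GC box (GGGCGG, or CCGCCC on the other strand) and the CCAAT box (CCAAT, or ATTGG on the other strand). A match that overlaps a marked one is not marked, as at the end of the Bgn sequence. Lamb1 (chr12:31265143-31265292, plus strand), Fbln2 (chr6:91212614-91212763, plus) and Nid1 (chr13:13437452-13437601, plus) are the 3 lower genes that passed with near-identical arrays averaged. Vcan (chr13:89742513-89742662, minus) was higher under vehicle. Bgn (chrX:73483451-73483600, plus) and Col1a2 (chr6:4505468-4505617, plus) varied within groups.
Lamb1: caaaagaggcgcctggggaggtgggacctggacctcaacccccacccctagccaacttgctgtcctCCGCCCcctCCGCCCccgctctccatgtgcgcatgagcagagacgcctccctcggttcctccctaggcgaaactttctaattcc
Fbln2: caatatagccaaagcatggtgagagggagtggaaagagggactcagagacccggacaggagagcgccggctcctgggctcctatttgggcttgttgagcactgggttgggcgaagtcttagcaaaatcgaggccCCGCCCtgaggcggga
Nid1: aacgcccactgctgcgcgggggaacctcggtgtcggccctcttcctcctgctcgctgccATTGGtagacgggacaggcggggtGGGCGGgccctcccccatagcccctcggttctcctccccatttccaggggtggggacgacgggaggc
Vcan: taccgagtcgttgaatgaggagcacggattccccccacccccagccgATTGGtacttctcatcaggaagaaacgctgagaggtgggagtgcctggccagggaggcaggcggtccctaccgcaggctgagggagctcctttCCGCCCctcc
Bgn: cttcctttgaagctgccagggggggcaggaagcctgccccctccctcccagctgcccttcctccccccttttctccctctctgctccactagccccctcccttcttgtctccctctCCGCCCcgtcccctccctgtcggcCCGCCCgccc
Col1a2: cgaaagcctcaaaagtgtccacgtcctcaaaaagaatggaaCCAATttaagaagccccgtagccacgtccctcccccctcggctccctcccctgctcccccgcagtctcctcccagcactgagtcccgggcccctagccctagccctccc

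Over such windows, on either strand, GGGCGG was found in 13 of 30 member windows (43.3%) and in 28.6% of the 32851 windows in the table. CCAAT was found in 8 (26.7%, against 24.5%), TATAAA in 4 (13.3%, against 7.57%), TGANTCA in 2 (6.67%, against 4.24%) and GGAATG in 2 (6.67%, against 7.59%). The 4 genes with TATAAA were Col3a1, Postn, Thbs2 and Tnc. These counts are descriptions of letters in a window, and several windows can belong to 1 gene.

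Among basement membrane genes, Lamb1, the laminin beta-1 chain, stood at 9.24, 9.61 and 9.15 (log2 expression) on the healthy liver vehicle arrays, and at 8.99, 9.02 and 9.19 under anti-VEGF. In fatty liver it stood at 8.26, 7.97 and 8.15 with vehicle, and at 8.08, 7.90 and 8.52 with anti-VEGF. Every fatty liver array was below every healthy liver array. The log2 difference was -1.21 ± 0.17 (SE, n = 3 against 3; 2.31-fold lower; adjusted p from limma 0.00051) under vehicle and -0.90 ± 0.17 (1.87-fold lower; 0.00224) under anti-VEGF, and it passed in all 12 fits that left out 1 array in both comparisons. Laminins are trimers of an alpha, a beta and a gamma chain, and the gamma-1 chain Lamc1 fell by 0.89 ± 0.13 under vehicle (adjusted p 0.000725) and by 0.61 ± 0.13 under anti-VEGF (0.00496).

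Nid1, nidogen-1, which links the laminin and collagen IV networks, was at 10.15, 10.86 and 10.22 in healthy liver with vehicle and at 10.39, 10.45 and 10.35 with anti-VEGF. The corresponding fatty liver values were 9.31, 9.39 and 9.31, then 9.57, 9.34 and 9.40. No fatty liver value reached a healthy liver value. Nid1 fell by 1.07 ± 0.16 (2.10-fold; adjusted p 0.000714) and by 0.95 ± 0.16 (1.94-fold; 0.00118), and its second row on the array gave differences of -1.03 and -0.77.

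Col18a1, a basement membrane collagen whose end fragment is endostatin, was at 9.11, 8.97 and 9.10 in healthy liver with vehicle and at 9.15, 9.32 and 9.06 with anti-VEGF. It was at 8.34, 8.03 and 8.34, then at 8.25, 8.24 and 8.69, in fatty liver. Values did not overlap between livers. The fall was 0.82 ± 0.14 under vehicle (adjusted p 0.00122) and 0.78 ± 0.14 under anti-VEGF (0.00152). Col15a1, the related collagen XV, exceeded the limit on 4 arrays only and differed by -0.17 ± 0.47 and 0.28 ± 0.47 (adjusted p 0.791 and 0.65).

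Col4a1 and Col4a2 encode the chains of the main collagen IV network. Col4a1 was at 8.45, 9.12 and 8.48, and at 8.31, 8.39 and 8.49 with anti-VEGF, in healthy liver, against 7.70, 7.95 and 7.73, and 7.93, 7.47 and 8.12, in fatty liver. Again no fatty liver array reached a healthy liver array. It fell by 0.89 ± 0.20 (adjusted p 0.00505) under vehicle and by 0.56 ± 0.20 (0.0421) under anti-VEGF. Col4a2 fell by 0.94 ± 0.28 (0.0173) under vehicle and was -0.69 ± 0.28 under anti-VEGF, where it missed the threshold (0.0645). The 2 genes lie head to head on opposite strands of chromosome 8 with 0 genes between them. In the RefSeq windows of build GRCm38.p6 their starts are 21 bases apart, and each gene runs past the start of the other. The stretch where they overlap, chr8:11312805-11312826, thus lies inside both genes. It is shown on the Col4a2 (plus) strand because both chains passed under vehicle, and its part in that change was not tested. Capitals mark a GC box (GGGCGG).
Col4a1-Col4a2: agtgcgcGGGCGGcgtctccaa

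For Lama4, the laminin alpha-4 chain of vessel walls, the values do not decide whether it followed Lamb1 and Lamc1. It was above the limit on 3 arrays: 8.99 on healthy liver vehicle array 2, 6.73 on fatty liver vehicle array 2 and 6.40 on fatty liver anti-VEGF array 1. The other 9 arrays ranged from 4.24 to 4.77. Its difference between livers was -0.64 ± 1.15 under vehicle and 0.80 ± 1.15 under anti-VEGF (adjusted p 0.672 and 0.593). The 3 arrays on which it was detected are those highest in endothelial markers, and the part of those cells in its level was not tested.

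**Figure D3:**
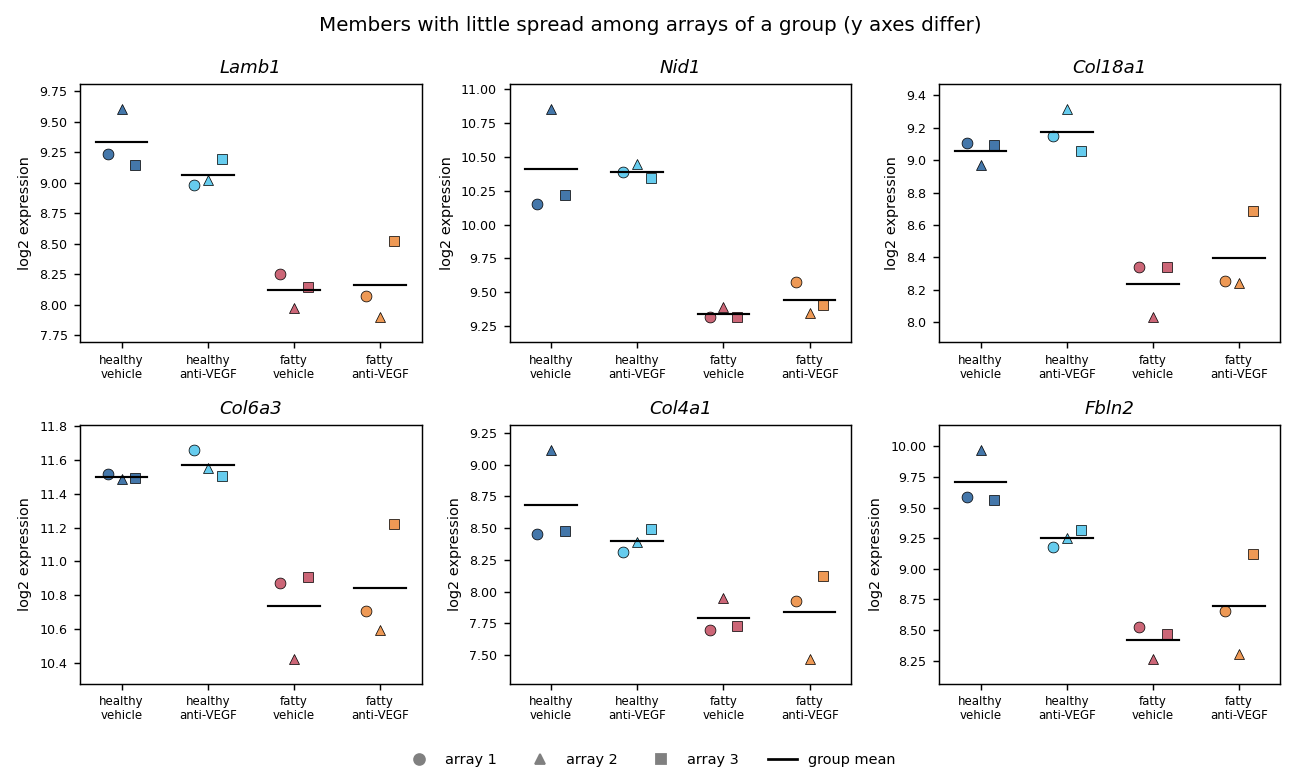
Log2 expression (y axes, which differ between panels) of 6 matrix genes on each array of the 4 groups (x axis); symbols give the array number and bars the group mean. Every fatty liver value lies below every healthy liver value in all 6 panels, and fatty liver anti-VEGF array 3 is the highest of the fatty liver arrays for Lamb1, Col18a1, Col6a3, Col4a1 and Fbln2.

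Collagen VI forms beaded microfibrils around cells from the alpha-1, alpha-2 and alpha-3 chains. Col6a3 was at 11.52, 11.49 and 11.49, and at 11.66, 11.55 and 11.51 with anti-VEGF, in healthy liver. In fatty liver it was at 10.87, 10.42 and 10.91, and at 10.71, 10.59 and 11.22. It fell by 0.77 ± 0.17 under vehicle (adjusted p 0.00459) and by 0.73 ± 0.17 under anti-VEGF (0.00613). Col6a1 fell by 0.76 ± 0.16 and 0.49 ± 0.16 (0.00433 and 0.0321) and Col6a2 by 0.99 ± 0.21 and 0.74 ± 0.21 (0.00385 and 0.0159). The 3 chains thus changed in 1 direction in both comparisons, and groups did not overlap for any of them. Col6a1 and Col6a2 are neighbours with 0 genes between them.

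Other even members were also lower in fatty liver. Col16a1, a fibril-associated collagen, fell by 0.80 ± 0.13 under vehicle (adjusted p 0.000951) and by 0.49 ± 0.13 under anti-VEGF (0.0118). Col5a1, a fibrillar chain that sets fibril diameter, fell by 1.07 ± 0.20 (0.00202) and by 0.54 ± 0.20 (0.0434), but its dimmer second row differed by only -0.06 and -0.31. Fbln2, fibulin-2, a glycoprotein of basement membranes and elastic fibres, was at 9.58, 9.97 and 9.56, and at 9.18, 9.25 and 9.32 with anti-VEGF, in healthy liver. Its fatty liver values were 8.52, 8.27 and 8.47, and 8.65, 8.30 and 9.12, all of them lower. The fall was 1.29 ± 0.19 (2.44-fold; 0.000597) under vehicle and 0.56 ± 0.19 (1.47-fold; 0.033) under anti-VEGF. Sparc, a collagen-binding matricellular protein, fell by 0.77 ± 0.19 under vehicle (0.00873) and was -0.25 ± 0.19 under anti-VEGF (0.309).

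Lrrc15, a membrane protein of some tumour fibroblasts, was at 7.22, 9.34 and 7.24 in healthy liver with vehicle and at 5.73, 6.76 and 5.58 in fatty liver with vehicle. It fell by 1.91 ± 0.56 (adjusted p from limma 0.0175), the largest fall among members that passed, and the call was lost without fatty liver vehicle array 1 or 3. The size of the fall rests in part on healthy liver vehicle array 2, 2.11 above the mean of arrays 1 and 3, against 1.10 in fatty liver. Lrrc15 still passed without that healthy liver array, when its group held only the near-identical arrays 1 and 3. Under anti-VEGF it was at 7.15, 7.23 and 7.32 in healthy liver and at 6.24, 6.25 and 7.54 in fatty liver, which overlapped, and differed by -0.55 ± 0.56 (0.441). Thbs2, thrombospondin-2, was 1.74 ± 0.66 lower under vehicle on the log2 scale (0.0498), a call kept in 3 of the 12 fits that left out 1 array, with -0.88 and an adjusted p of 0.129 without healthy liver vehicle array 2.

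Opposite in direction to Lamb1, Nid1 and Fbln2, whose promoters are printed above, was Thbs1, thrombospondin-1, an inhibitor of angiogenesis that also activates latent TGF-beta. In healthy liver it was at 8.03, 11.21 and 8.18 with vehicle and at 8.19, 8.13 and 8.27 with anti-VEGF. In fatty liver it was at 12.18, 12.52 and 12.11 with vehicle and at 12.36, 12.14 and 10.003 with anti-VEGF. The groups did not overlap within either treatment. Thbs1 rose by 3.13 ± 0.80 (8.76-fold, adjusted p from limma 0.00931) and by 3.30 ± 0.80 (9.87-fold, 0.00824). Without healthy liver vehicle array 2 it rose by 4.17 under vehicle (adjusted p 0.000348). That group then held only the near-identical arrays 1 and 3. The low fatty liver array, anti-VEGF array 3, is the one with few T and NK cell transcripts. Macrophage and neutrophil transcripts also moved with the liver: the macrophage list mean was 9.17 to 10.33 in healthy liver and 11.22 to 11.55 in fatty liver, and the neutrophil mean was 4.81 to 5.70 and 5.95 to 9.91. The part of these cells in the rise was not tested.

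Vcan, versican, a large hyaluronan-binding proteoglycan, was at 8.06, 8.33 and 8.07 in healthy liver with vehicle and at 9.18, 10.14 and 9.26 in fatty liver with vehicle. The groups were well apart, and it rose by 1.37 ± 0.49 (2.59-fold; adjusted p 0.0398), a call kept in 2 of the 12 fits that left out 1 array. Under anti-VEGF the fatty liver arrays were at 10.28, 9.09 and 7.79 against 7.88, 7.77 and 7.93, so array 3 lay within the healthy liver range, and the difference of 1.19 ± 0.49 missed the threshold (0.0698).

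Fn1, fibronectin, the scaffold on which collagen is assembled, was at 7.46, 11.75 and 7.20 in healthy liver with vehicle and at 10.49, 11.68 and 10.53 in fatty liver with vehicle. With anti-VEGF it was at 7.90, 7.91 and 7.88 in healthy liver and at 11.25, 10.60 and 9.16 in fatty liver. All fatty liver arrays exceeded all healthy liver arrays but 1, healthy liver vehicle array 2. The differences, 2.10 ± 1.02 and 2.44 ± 1.02, missed the threshold (adjusted p 0.11 and 0.0723). Without that array, limma gave 3.57 (0.000675) and 2.44 (0.00281). The healthy liver vehicle group then held only the near-identical arrays 1 and 3, so the first p-value is not shown to rest on separate samples. The second difference uses no vehicle array and was unchanged, so its p-value fell only through the pooled spread. Col14a1, a fibril-associated collagen, was higher in fatty liver under anti-VEGF (1.03 ± 0.35, adjusted p 0.0336). It was at or below the limit on all 3 healthy liver arrays there. With that limit in place of the dimmer values, the group means were 1.34-fold apart. That figure is not a lower bound, as the 95% interval of the log2 difference (0.26 to 1.79) reaches nearer 0.

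**Figure D4:**
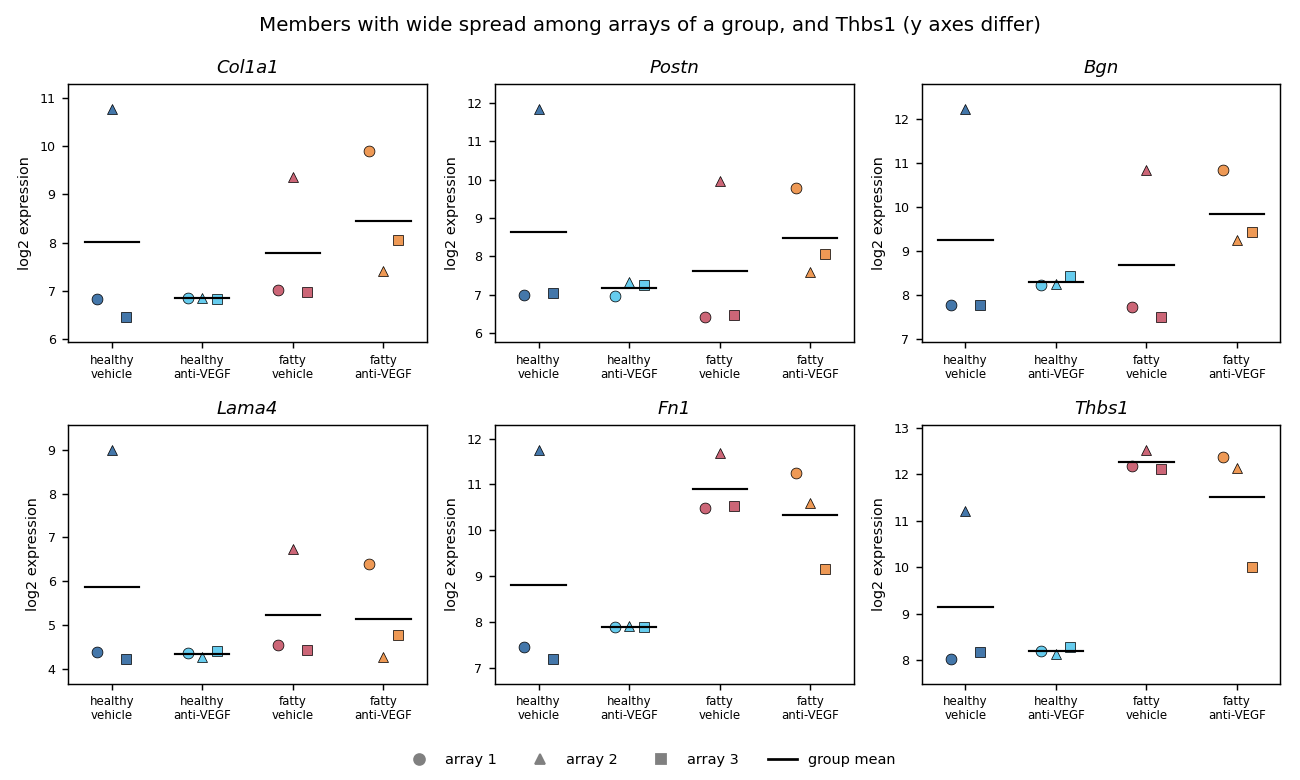
Log2 expression (y axes, which differ between panels) of Col1a1, Postn, Bgn, Lama4, Fn1 and Thbs1 on each array of the 4 groups (x axis); symbols give the array number and bars the group mean. Array 2 of both vehicle groups and array 1 of the fatty liver anti-VEGF group stand above the others of their group for the first 4 genes, and the 3 healthy liver anti-VEGF arrays lie almost on top of one another.

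The remaining members had wide spread within groups. Col1a1, the alpha-1 chain of collagen I, was at 6.84, 10.78 and 6.45 in healthy liver with vehicle and at 7.03, 9.35 and 6.98 in fatty liver with vehicle. With anti-VEGF it was at 6.84, 6.86 and 6.83, then at 9.91, 7.42 and 8.05. Its difference between livers was -0.24 ± 1.09 (95% interval -2.66 to 2.18; adjusted p 0.877) under vehicle, turned to 1.14 (0.241) without healthy liver vehicle array 2, and was 1.61 ± 1.09 (-0.81 to 4.03; 0.246) under anti-VEGF. Groups overlapped under vehicle. Under anti-VEGF the fatty liver values all lay above the healthy liver values, as they also did for Col1a2, Col12a1, Postn, Dcn, Bgn and Loxl1, none of which passed.

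Postn, periostin, a matricellular protein of activated fibroblasts, was at 6.99, 11.85 and 7.05, then at 6.40, 9.97 and 6.47, in the healthy and fatty liver vehicle groups. With anti-VEGF it was at 6.96, 7.34 and 7.24, then at 9.79, 7.59 and 8.07. The differences were -1.02 ± 1.31 and 1.30 ± 1.31 (adjusted p 0.545 and 0.434). Bgn, biglycan, a small leucine-rich proteoglycan, was at 7.78, 12.23 and 7.77, and at 7.74, 10.84 and 7.50, under vehicle. With anti-VEGF it was at 8.23, 8.25 and 8.43 in healthy liver, below all of the fatty liver values of 10.83, 9.25 and 9.44, but the difference was 1.54 ± 1.18 (0.306) and its second row gave 0.22. Col3a1, the collagen III chain, differed by -0.94 ± 0.44 and 0.24 ± 0.44 (adjusted p 0.1 and 0.681). Arrays with the same number deviated together in the 2 vehicle groups, though the labels state no pairing. That number was then used as a replicate block in a fit of those 6 arrays, an alternative chosen after seeing the data. In it 21 members passed, where 54% of all genes were called. Those gained were all lower. They were Col3a1 and Postn (adjusted p from limma 0.0128 and 0.0454, with values of -0.94 and -1.02). The others were the proteoglycans Lum and Dcn (0.00281 and 0.00375, with values of -1.43 and -1.18). In the fit of all 12 arrays without the block, Lum and Dcn had 0.0585 and 0.388. With the block, the fit of all 12 arrays gained none of these genes, so the gain is not shown to come from the block alone. Each gained gene was lower in fatty liver in all 3 pairs. Arrays 1 and 3 of both groups are near-identical, however, so the pairs are not shown to be separate. In that fit of 6 arrays 2 of the 4 proteoglycans are thus lower.

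On healthy liver vehicle array 2, 22 of the 35 tested members were higher by 1 or more on the log2 scale than the mean of arrays 1 and 3, against 6.8% of all tested genes. On fatty liver vehicle array 2 the count was 15, against 1.65%, and on fatty liver anti-VEGF array 1, compared with arrays 2 and 3, it was 13, against 2.82%. Col12a1, a fibril-associated collagen, had the widest excess on the first of these arrays, 5.07, and reached 3.19 and 2.02 on the others. Next were Postn at 4.83, 3.53 and 1.96, and Bgn at 4.46, 3.23 and 1.48. Lama4 was at or below the limit on the arrays compared with, and with the limit in place of those values its excess was at least 4.06, 1.80 and 1.47. Tnc, tenascin-C, stood at 4.35, 2.88 and 1.83, Col1a1 at 4.14, 2.35 and 2.18, and Dcn, decorin, at 3.60, 3.10 and 2.15. Loxl1, an amine oxidase that cross-links elastin, showed 4.16, 1.53 and 1.25. With the limit in place of all lower values, an alternative chosen after seeing the data, the counts were 21, 14 and 13 (6.42%, 1.42% and 2.5% of all genes), Col14a1 leaving the first and Lum the second. The member just inside the line of 1 on the first array, other than Col14a1, was Col4a2 at 1.08, and just outside it were Nid1 at 0.68 and Col4a1 at 0.65.

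**Figure D5:**
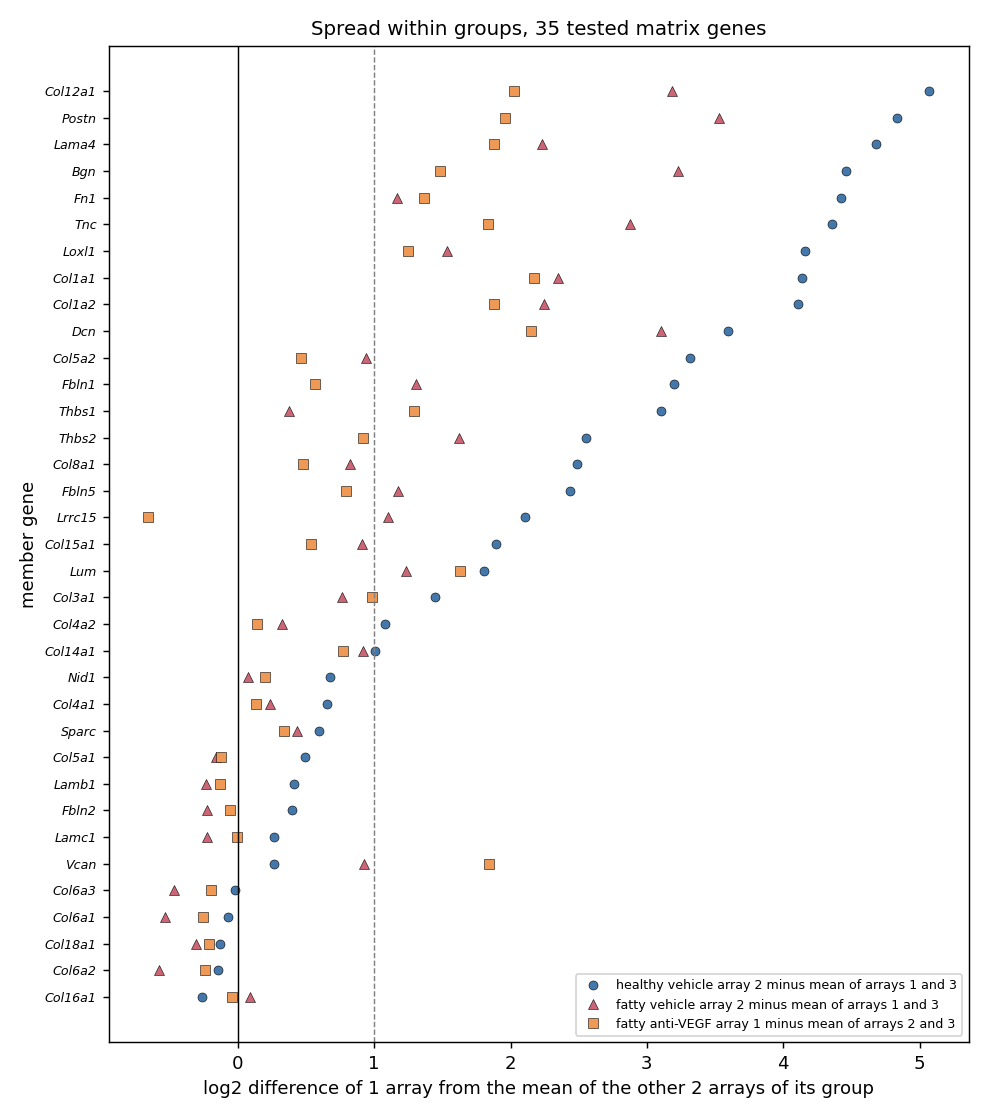
Difference of 1 array from the mean of the other 2 arrays of its group (x axis, log2) for each tested matrix gene (y axis, ordered by the value on healthy liver vehicle array 2); the dashed line marks 1. Col12a1, Postn, Lama4 and Bgn lead on healthy liver vehicle array 2, where Lama4 is set against values at or below the limit, and collagen VI, Col16a1 and Col18a1 lie at or left of 0 on that array.

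Many transcripts of pericytes, and some of stellate cells and fibroblasts, were high on the same arrays. Of the tested markers, 7 of 10 of pericytes and smooth muscle, 4 of 9 of stellate cells, 5 of 12 of fibroblasts and 12 of 13 of endothelium were the highest of their group on all 3, against 10.9% of all tested genes. The same held for 5 of 6 neutrophil, 4 of 10 T and NK cell and 4 of 12 macrophage markers. The pattern was thus not particular to the vessel and stromal lists. The endothelial count follows from choosing the arrays by that list. Rgs5, Lrat, Des, Kcnj8, Emcn, Ptprb, Robo4 and Tie1 exceeded the limit on these arrays only, so they entered the tests by being high there. Rgs5 and Des count in both the pericyte and the stellate cell lists. Ecm1 of the stellate cell list led narrowly on fatty liver anti-VEGF array 1 (11.37, against 11.26 and 11.31). So did Clec3b of the fibroblast list (5.175, against 5.097 and 5.119). Rgs5, a pericyte marker, was at 9.09, 9.13 and 7.54 on the 3 arrays and between 3.999 and 4.42 on the others, and Lrat, a stellate cell marker, was at 7.38, 5.35 and 5.10 on them and at most 4.57 elsewhere. Nes, also on the stellate cell list, was the lowest of its group on all 3. Pdgfra, Dpt and Prrx1, fibroblast markers, and Pdgfrb, of pericytes and fibroblasts, were above the limit on all 12 arrays and did not share this pattern. In both liver comparisons 6 of the 12 fibroblast markers were lower in fatty liver (Pdgfra, Dpt, Prrx1, Dpep1, Twist1 and Twist2) and 2 were higher (Pi16 and Pdpn). Under vehicle Pdgfra fell by 1.22, Pdgfrb by 1.22, Dpt by 1.44 and Prrx1 by 0.94 (adjusted p from limma 0.00233, 0.000347, 0.00164 and 0.000384), whereas Pi16 rose by 1.80 and Pdpn by 1.59 (0.00475 and 0.0225). The part of these cells in the members' levels was not tested. Without the 3 arrays, an alternative chosen after seeing the data, 23 members passed under vehicle (3 higher, 20 lower, against 20.1% and 36.4% of all genes) and 22 under anti-VEGF (9 higher, 13 lower, against 20.3% and 27.5%), but the arrays then left are mostly the near-identical ones, so the spread they give is that of such arrays. Under anti-VEGF, Col1a1, Col1a2, Postn, Dcn, Bgn and Loxl1 were among those higher in that fit.

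Between anti-VEGF and vehicle, 0 of the 35 members passed in limma in either liver. In healthy liver 0% of all tested genes were higher and 0% lower, and at an unadjusted p under 0.05 there were 3 members and 1118 genes. In fatty liver 0% of genes were higher and 0.00753% lower, which is 1 gene and no member, with 1 member and 778 genes at an unadjusted p under 0.05. Values did not overlap for 8 members lower and 0 higher in healthy liver, against 11.7% and 13.1% of all tested genes, and for 0 in either direction in fatty liver, against 4.99% lower and 3.07% higher. The 8 were Col3a1, Col5a1, Fbln2, Sparc, Thbs2, Lum, Dcn and Vcan. The 3 healthy liver anti-VEGF arrays are near-identical, so this separation is not shown to be that of 3 samples.

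In healthy liver the smallest p among members belonged to Lum, lumican, a small leucine-rich proteoglycan that regulates fibril spacing. It was at 5.47, 7.25 and 5.42 with vehicle and at 4.44, 4.53 and 4.33 with anti-VEGF, at or below the limit throughout that group. The difference was -1.62 ± 0.57 (95% interval -2.88 to -0.36, adjusted p from limma 0.461). With the limit in place of the dim values the group means were 2.17-fold apart. That figure is raised by healthy liver vehicle array 2, and it is not a lower bound, as the interval reaches nearer 0. Next came Fbln2 at -0.46 ± 0.19 and Thbs2 at -1.47 ± 0.66 (adjusted p 0.546 and 0.594). The difference was -1.18 ± 1.09 for Col1a1, -0.67 ± 0.44 for Col3a1, -0.29 ± 0.20 for Col4a1, -0.91 ± 1.02 for Fn1, -1.45 ± 1.31 for Postn and -0.32 ± 0.19 for Sparc, with adjusted p from 0.714 to 0.895. Those of Col1a1, Fn1 and Postn turned positive without healthy liver vehicle array 2 (0.20, 0.57 and 0.16).

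In fatty liver the smallest p was that of Col14a1, at 4.04, 5.13 and 4.37 with vehicle and 5.87, 5.07 and 5.13 with anti-VEGF. The groups overlapped, and the difference was 0.85 ± 0.35 (adjusted p 0.795). Lamc1 differed by 0.22 ± 0.13 and Fbln2 by 0.27 ± 0.19 (0.795 and 0.798). For Col4a1 the difference was 0.05 ± 0.20 (95% interval -0.39 to 0.49), which bounds a change of this chain more closely than the 0.67 ± 1.09 (-1.75 to 3.09) of Col1a1 or the 0.87 ± 1.31 (-2.03 to 3.77) of Postn.

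The test of whether the treatment difference is unequal in the 2 livers passed for 0 members in limma, against 0% of all genes in either direction, with 2 members and 677 genes at an unadjusted p under 0.05. The smallest p belonged to Fbln2, at 0.73 ± 0.26 (fatty minus healthy, adjusted p 0.964), Lum, at 2.00 ± 0.80 (0.964), and Col14a1, at 0.93 ± 0.49 (0.976).

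Without the 3 arrays highest in endothelial markers, 3 members passed in healthy liver (Tnc higher, Lum and Dcn lower), 3 in fatty liver (Postn, Dcn and Bgn higher) and 2 in the test of unequal differences (Lum and Dcn), against 1.02%, 0.625% and 0.113% of all genes. Each vehicle group then held 2 near-identical arrays, and the healthy liver anti-VEGF group 3.

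Genes that act on the matrix proteins were examined as lists beside the members, to be read against the 30.4% lower and 19.2% higher of all genes under vehicle and 27.6% and 18.2% under anti-VEGF. Of 22 tested genes for collagen folding, processing and cross-linking, 12 were lower and 1 higher in fatty liver under vehicle, and 10 lower and 2 higher under anti-VEGF, with medians of -0.77 and -0.62 against -0.12 and -0.13 for all genes. Serpinh1, the collagen chaperone HSP47, was lower by -1.04 ± 0.14 and -0.67 ± 0.14 (adjusted p 0.00046 and 0.00444), and Bmp1, which removes the collagen C-propeptide, by -1.01 ± 0.15 and -0.64 ± 0.15 (0.000638 and 0.00671). Tgm2, a cross-linking transglutaminase, was higher by 1.80 ± 0.27 and 1.91 ± 0.27 (0.000759 and 0.000479). Of 5 other basement membrane genes tested, 4 were lower in both comparisons. Hspg2, which encodes perlecan, fell by 1.15 ± 0.14 and 0.77 ± 0.14, Lama5 by 1.05 ± 0.20 and 0.93 ± 0.20, and Agrn and Lamb2 were the others.

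Of 13 other collagen chains, 2 were lower under vehicle and 4 under anti-VEGF, and 0 were higher. Col5a3 fell by 0.79 ± 0.10 and 0.82 ± 0.10. Of 28 other elastic fibre, glycoprotein and proteoglycan genes, 3 rose and 6 fell under vehicle, and 4 rose and 5 fell under anti-VEGF, in each case a smaller share than over all genes. Tgfbi, a secreted protein that binds collagen and integrins, rose by 0.84 ± 0.10 and 0.98 ± 0.10, and Ltbp1, which stores latent TGF-beta in the matrix, fell by 0.97 ± 0.15 and 1.01 ± 0.15. In limma, 0 of the 68 tested genes of these 4 lists passed in either treatment comparison or in the test of unequal differences, with 3 at an unadjusted p under 0.05 in healthy liver, 5 in fatty liver and 4 in the last test.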

How the data were processed

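Total RNA was amplified and labelled with biotin for Affymetrix whole-transcript arrays, per the labels' protocols. The table the authors deposited holds log2 expression per array, made with Affymetrix Expression Console per the submitters' processing notes; its version, the normalization and the genome build were not stated, and the log2 scale was read from the values. Scanner files and detection calls were not used here, so 4.93, the median of the table, stood in as the limit of detection. Gene names came from the platform annotation, which gives several symbols for 1814 rows and none for 16010; these rows were not used. No further normalization was applied.

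All 12 arrays entered 1 limma model (3.58.1, R 4.3.3; lmFit, eBayes) with a mean per group, 8 residual and 2.40 prior degrees of freedom, tested on simulated data. Adjusted p-values are Benjamini-Hochberg over all 13286 tested genes, with a threshold of 0.05. The number of arrays limits the precision.

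The members, gene lists and tests were chosen with earlier results of these data known. In each comparison every member past the threshold could be named, or the 3 with the smallest p where fewer than 3 passed, with Col1a1, Col3a1, Col4a1, Fn1, Postn and Sparc added throughout. Other members are given as levels. Of each list, up to 3 genes past the threshold with the smallest p could be named, and the fibroblast, pericyte, stellate and endothelial markers named were picked after their values were seen.

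Deviations of same-numbered arrays correlated between the vehicle groups of the 2 livers (r = 0.536, 0.701 and 0.549), which was taken as pairing from the data, since the labels state none. In the other comparisons at least 1 pair was under 0.1 (from -0.486 to 0.472).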

Additional observations from a re-analysis of the deposited data

How the results depend on the processing

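Direction and side of the threshold were compared for the members named in each comparison. Averaging near-identical arrays left 3 members under vehicle and 0 under anti-VEGF in the liver comparisons (17 and 13 otherwise, limma); fewer samples, 4 residual degrees of freedom and a healthy liver anti-VEGF group of 1 are built into that setting. Leaving out 1 array gave 13 to 17 and 7 to 16, where 35.3% to 55.2% and 32.2% to 56.3% of all genes were called. Array weights gave 3 members in the healthy liver treatment comparison, 2 in fatty liver, 20 between livers under anti-VEGF and 1 for unequal differences. Of all genes, 12.5%, 13.9%, 74.4% and 11.1% were called in those fits, so the counts of members do not stand out. Without the 3 arrays highest in endothelial markers (chosen after seeing the data) the counts of members were 3, 3, 22 and 2, against 1.02%, 0.625%, 47.8% and 0.113% of all genes. Quantile normalization, median centring, other filters, the mean of a gene's rows, and trend with robust fitting kept all 5 counts within 1.5 times, as did the compared groups alone for the 4 they can give. Setting values at or below the limit to it, also chosen after seeing the data, changed the counts of members in excess on 1 array from 22, 15 and 13 to 21, 14 and 13.

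With the replicate block the liver comparisons gave 17 and 12 members (50.2% and 47.1% of all genes called). When only the 6 vehicle arrays were paired, also chosen after seeing the data, 21 passed under vehicle (54%). The paired 6 arrays added Col3a1, Postn, Lum and Dcn. In the fit of all arrays the block kept all 17 calls under vehicle; under anti-VEGF it added Fn1 and took Col5a1 and Col4a1. It changed no other call of a member in a liver comparison.

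Signs turned in comparisons in which the member had not passed. For treatment in healthy liver, array weights gave 0.031 for Col1a1, 0.397 for Fn1 and 0.000 for Postn; without the 3 arrays the values were 0.20, 0.567 and 0.162. Leaving out 1 array spanned -1.966 to 0.20, -1.710 to 0.567 and -2.268 to 0.162. For treatment in fatty liver, weights gave -0.080 for Lamc1, -0.123 for Fbln2, -0.067 for Col3a1, -0.217 for Col4a1 and 0.011 for Fn1. Leaving out 1 array spanned -0.055 to 1.454 for Col1a1, -0.093 to 0.233 for Col4a1 and -1.018 to 0.026 for Fn1. Between livers under vehicle, Col1a1 was 0.287 with weights, 0.359 without the 3 arrays and -1.023 to 1.143 without 1, and Postn -2.194 to 0.594 without 1. Under anti-VEGF, Col3a1 was -0.501 with weights (adjusted p from limma 0.0348), -0.089 without the 3 arrays and -0.089 to 0.667 without 1. For unequal differences, weights gave -0.120 for Col4a1 and -0.386 for Fn1, which was -1.195 without the 3 arrays and -1.129 to 1.148 without 1. The cause was not tested.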

Other observations

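Some receptors of the matrix and genes of the TGF-beta system, which induces many collagen genes, differed between livers, in counts to be read against the 19.2% higher and 30.4% lower of all genes under vehicle and 18.2% and 27.6% under anti-VEGF. Of 18 tested collagen and matrix receptors, 3 were higher and 6 lower in fatty liver under vehicle, and 2 higher and 7 lower under anti-VEGF, with medians of -0.20 and -0.28 against -0.12 and -0.13 for all genes. Itga3 and Itga6, integrin alpha chains of laminin receptors, fell: Itga3 by 1.15 ± 0.20 and 0.88 ± 0.20 and Itga6 by 0.62 ± 0.13 and 0.68 ± 0.13 (adjusted p from limma 0.00137, 0.00536, 0.00441 and 0.00295). Sdc1, the heparan sulphate proteoglycan syndecan-1, fell by 0.72 ± 0.13 and 0.75 ± 0.13 (0.00174 and 0.00139). Itgb5, an integrin chain that binds vitronectin, rose by 0.50 ± 0.11 and 0.51 ± 0.11 (0.00469 and 0.00422). In the treatment comparisons and the test of unequal differences, limma called 0 of the 18, with 2, 0 and 1 at an unadjusted p under 0.05 in healthy liver, in fatty liver and in the last test.

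Of 13 tested TGF-beta ligands, receptors and regulators, 4 were higher and 3 lower in fatty liver under vehicle, and 4 higher and 2 lower under anti-VEGF. Tgfb1, the main ligand, rose by 0.62 ± 0.10 and 0.74 ± 0.10 (adjusted p from limma 0.00109 and 0.000358), and Tgfbr1, the type I receptor, by 0.83 ± 0.16 and 1.27 ± 0.16 (0.00252 and 0.000211). Tgfbr3, betaglycan, a co-receptor, fell by 1.06 ± 0.14 and 0.94 ± 0.14 (0.000356 and 0.000542). With treatment, limma called 0 of the 13, and 0 had an unadjusted p under 0.05. Macrophage transcripts, higher in fatty liver, moved with these genes, and their part in the rise was not tested.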
